A study of Homo sapiens with 6 samples.

Results

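A set of 9 genes of deoxynucleotide supply, RRM1, RRM2, TYMS, DUT, DTYMK, SHMT1, GGH, TK1 and DCK, was followed by PRO-seq in SBC-3 cells after siRNA against SFPQ. All 9 were taken by gene symbol from a table of 25827 features, and all 9 passed a filter on low values (at least 10 normalized reads in at least 2 libraries) that left 21773 features for testing. SBC-3 is an established human small cell lung cancer line, and its labels give the genotype as wild type for control cells and as an SFPQ knockdown for the others. PRO-seq sequences RNA that engaged RNA polymerases extend in permeabilized cells, so its reads follow transcription as it happens and not the pool of finished mRNA. The 3 groups were cells given a control siRNA (siCtrl), cells given siSFPQ-2 and cells given siSFPQ-3, with n = 2 libraries each. Each siRNA was used at 10 nM by reverse transfection with Lipofectamine RNAiMAX, which all groups therefore shared, and cells were harvested at 72 h. The study asked how loss of SFPQ, a nuclear protein that binds both RNA and DNA, alters nascent transcription. Nothing in the labels says whether the paired libraries were grown as independent cultures. The p-values therefore weigh group differences only against the spread among these libraries, and that spread may be technical.

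DNA replication consumes the deoxynucleoside triphosphates, which cells make by a pair of routes. In the de novo route, ribonucleotide reductase converts ribonucleoside diphosphates to deoxyribonucleoside diphosphates, and thymidylate synthase methylates dUMP to dTMP with a folate cofactor that one-carbon enzymes regenerate. In the salvage route, kinases phosphorylate deoxynucleosides taken up or released from DNA. Several of these genes are textbook targets of E2F factors and are transcribed mostly as cells enter and pass through S phase.

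The promoters are shown because the letters that E2F factors and NF-Y are known to bind can be seen in them. Promoter sequence came from RefSeq on GRCh38.p14, the same build as hg38, as windows of 300 bases, and 8 of the 9 genes had 13 such windows among them. The E2F-type letters searched were TTCCCGC with its variants TTCGCGC as well as TTGCCGC as well as TTGGCGC, while those of NF-Y were CCAAT, each on both strands. Capitals mark these letters or their reverse complement, and in these promoters no match of one kind overlapped a match of the other. Each sequence is written 5′ to 3′ on the strand of its gene.
TYMS, chr18:657553-657652, plus strand: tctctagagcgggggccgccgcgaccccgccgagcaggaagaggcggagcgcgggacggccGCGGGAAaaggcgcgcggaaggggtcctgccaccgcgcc
RRM1, chr11:4094585-4094684, plus strand: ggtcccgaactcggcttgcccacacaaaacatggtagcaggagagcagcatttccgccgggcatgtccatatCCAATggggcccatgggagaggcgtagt
DTYMK, chr2:241686816-241686915, minus strand: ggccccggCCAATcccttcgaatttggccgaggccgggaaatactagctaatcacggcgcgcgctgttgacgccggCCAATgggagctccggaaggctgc
DCK, chr4:70993549-70993648, plus strand: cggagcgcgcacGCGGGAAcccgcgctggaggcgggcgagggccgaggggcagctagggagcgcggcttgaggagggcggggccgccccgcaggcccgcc
SHMT1, chr17:18363551-18363650, minus strand: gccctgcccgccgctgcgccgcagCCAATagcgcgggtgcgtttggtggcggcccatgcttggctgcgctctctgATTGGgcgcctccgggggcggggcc
RRM2, chr2:10122611-10122640, plus strand: cgcagCCAATgggaagggtcggaggcatgg
RRM2, chr2:10122641-10122670, plus strand: cacagCCAATgggaagggccggggcaccaa
RRM2, chr2:10122660-10122689, plus strand: cggggcaccaaagCCAATgggaagggccgg
TK1, chr17:78187113-78187142, minus strand: cggccgggcgctgATTGGccccatggcggc
TK1, chr17:78187083-78187112, minus strand: ggggccggctcgtgATTGGccagcacgccg
TK1, chr17:78187053-78187082, minus strand: tggtttaaagcggtcggcGCGGGAAccagg
DUT, chr15:48332151-48332180, plus strand: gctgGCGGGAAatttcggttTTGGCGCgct
For TYMS, RRM1, DTYMK, DCK and SHMT1 the run ends just before the first RefSeq start of the gene. For RRM2, TK1 and DUT short runs before the starts at 10122739, 78187052 and 48332197 are shown.

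E2F-type letters stood in windows of 6 of the 8 genes (RRM1, RRM2, TYMS, TK1, DUT and DCK), beside 13.0% of all 35116 RefSeq promoter windows. In TYMS they began 39 bases before the start and in TK1 12 bases before it, while DUT held a pair of matches, 42 and 26 bases before its start. CCAAT stood in windows of 5 of the 8 genes (RRM1, RRM2, TK1, DTYMK and SHMT1), beside 34.6% of all windows. RRM2 carried 3 CCAAT runs at 123, 93 and 66 bases before the start at 10122739. The counts over genes and over single windows are not on the same footing, since some genes had several windows: 6 of the 13 windows held E2F-type letters and 6 held CCAAT. The E2F-type matches of RRM1 and RRM2, 223 and 192 bases before a start, lie outside the runs shown. A match describes letters only, and no binding was measured here. A relation of the letters to the falls was not tested.

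The libraries held 12072813 to 18475158 whole reads, and 1 read was worth 0.797 to 1.11 normalized reads, the unit used below. The 9 genes had 67 to 1038 whole reads per library. SFPQ itself gave 2294 and 2435 normalized reads in siCtrl, 1825 and 1972 under siSFPQ-2, and 1922 and 2466 under siSFPQ-3, and its log2 fold change of -0.22 did not pass (limma, adjusted p = 0.137). An siRNA acts on the finished transcript, so nascent reads do not check the knockdown, and these libraries hold no other check of it. Of the defining markers of neuroendocrine small cell lung cancer, NEUROD1 lay at 27.1 and 31.0 in siCtrl, SYP at 283 and 226, DLL3 at 124 and 130, and CHGA at or under 5.54 in every library. INSM1 and NCAM1 were not analysed here. YAP1, the marker of another subtype, lay at 3312 and 2856 in siCtrl and rose (log2 fold change 0.73, limma adjusted p = 0.000436). POU2F3, the marker of a further subtype, fell (log2 fold change -0.54, limma adjusted p = 0.0216), as did DLL3 (-0.83, adjusted p = 0.00730). Immune and endothelial markers were not analysed here.

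Nascent transcription of 8 of the 9 genes fell when SFPQ was targeted, and that of SHMT1 did not pass the test. The falls ran from 1.38-fold for DCK to 2.47-fold for TK1 over both siRNAs, with TYMS 2.32-fold, DTYMK 2.17-fold, RRM2 2.09-fold, GGH 2.08-fold, RRM1 2.03-fold and DUT 1.71-fold lower. None of the 9 was higher, by limma, edgeR or DESeq2, or at an unadjusted p under 0.05. Over all tested features 23.2% were called lower and 24.8% higher in the same comparison (limma, adjusted p under 0.05 by Benjamini-Hochberg). The median log2 fold change of the 9 genes was -1.06, beside -0.02 over all features. In the same 8 genes the 4 siSFPQ libraries lay below both siCtrl libraries, an arrangement that 31% of all features had. PRO-seq of a culture sums over its cells, so fewer cells in S phase and less transcription per cell cannot be told apart.

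**Figure D1:**
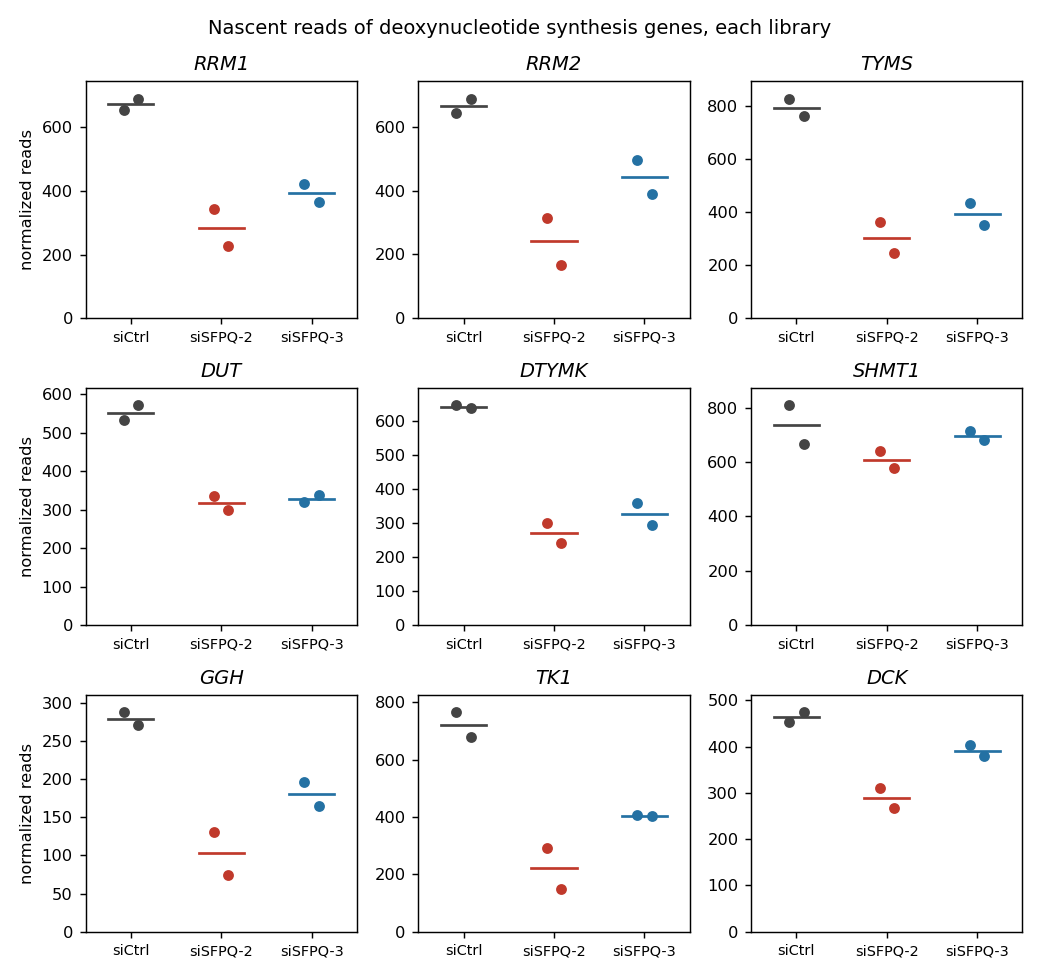
Normalized PRO-seq reads (y axis, from 0, a separate scale per gene) of the 9 genes in each of the 6 libraries; points are libraries and bars are group means. In all panels except SHMT1 the 4 siSFPQ libraries lie below both siCtrl libraries, and in each panel the lowest point is siSFPQ-2 replicate 2.

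RRM1 and RRM2 encode the large and the small subunit of ribonucleotide reductase, the enzyme that sets the pace of deoxynucleotide production. RRM1 (ENSG00000167325, chr11:4094685-4138932) had 654 and 690 normalized reads in siCtrl, 342 and 227 under siSFPQ-2, and 423 and 366 under siSFPQ-3. Both siRNAs left all 4 libraries below the controls, with means of 672 ± 25.9 in siCtrl, 285 ± 81.5 under siSFPQ-2 and 394 ± 40.4 under siSFPQ-3 (SD, n = 2). The log2 fold change over both siRNAs was -1.02 (SE 0.154, limma adjusted p = 0.000399). RRM2 (ENSG00000171848, chr2:10122568-10211010, a span that includes a long transcript) is the subunit whose supply rises and falls most over the cell cycle. Its reads were 643 and 689 in siCtrl, 314 and 168 under siSFPQ-2, and 497 and 389 under siSFPQ-3. The groups did not overlap, and siSFPQ-2 replicate 2 stood lowest by far. The log2 fold change was -1.06 (SE 0.207, limma adjusted p = 0.00183). RRM2 passed here but not in the authors' deposited table, where its log2 fold change was -0.96 with an adjusted p of 0.0932 and its class was ns. With the 4 siSFPQ libraries taken as a single group, limma gave an adjusted p of 0.0209.

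The other small subunit, RRM2B, which is known as a p53 target used outside S phase, went the opposite way. It had 760 and 699 reads in siCtrl and 864 to 970 in the siSFPQ libraries, with no overlap. Its log2 fold change was 0.35 (limma adjusted p = 0.0119), and the call was lost without siCtrl replicate 2 (adjusted p = 0.138).

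TYMS, DUT and DTYMK act in sequence on the way to dTTP. DUT hydrolyses dUTP to dUMP, TYMS methylates dUMP to dTMP, and DTYMK phosphorylates dTMP to dTDP. TYMS (ENSG00000176890, chr18:657653-673578) had 827 and 760 normalized reads in siCtrl, 362 and 246 under siSFPQ-2, and 432 and 350 under siSFPQ-3. All 4 siSFPQ libraries lay below the controls, and the ranges of the siRNAs overlapped each other. Its log2 fold change was -1.22 (SE 0.155, limma adjusted p = 0.000133). DTYMK (ENSG00000168393, chr2:241675747-241686815) gave 647 and 639 in siCtrl, 299 and 241 under siSFPQ-2, and 359 and 295 under siSFPQ-3. Its control libraries were closest together of the 9 genes by SD (643 ± 5.62, n = 2), and its log2 fold change of -1.12 (SE 0.129) had the smallest adjusted p among them, 6.61e-05 by limma. DUT (ENSG00000128951, chr15:48331095-48343373) gave 533 and 571 in siCtrl, 336 and 299 under siSFPQ-2, and 318 and 338 under siSFPQ-3. The 4 siSFPQ values lay within 299 to 338, so that DUT differed least between the siRNAs, and its log2 fold change was -0.77 (SE 0.109, limma adjusted p = 0.000252).

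SHMT1 and GGH serve the folate pool on which thymidylate synthase draws. SHMT1, the cytosolic serine hydroxymethyltransferase that loads one-carbon units onto folate, was the one gene of the 9 that did not pass the test. SHMT1 (ENSG00000176974, chr17:18327873-18363550) had 808 and 665 normalized reads in siCtrl, 640 and 578 under siSFPQ-2, and 713 and 682 under siSFPQ-3. The siSFPQ-3 libraries fell between the control libraries, whose own spread was wide (736 ± 101, SD, n = 2). The log2 fold change was -0.17 with a 95% interval from -0.41 to 0.07 (limma adjusted p = 0.220). That interval reaches down to a fall smaller than the DCK estimate of -0.47, and its upper end allows a small rise. GGH, the hydrolase that trims glutamate chains from stored folates, fell. GGH (ENSG00000137563, chr8:63015079-63038806) gave 288 and 270 in siCtrl, 131 and 74.2 under siSFPQ-2, and 197 and 165 under siSFPQ-3, with no overlap between groups. Its log2 fold change was -1.06 (SE 0.207, limma adjusted p = 0.00189).

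TK1 and DCK open the salvage route, TK1 for thymidine and DCK for deoxycytidine and purine deoxynucleosides. TK1 is known to be made in S phase, whereas DCK is known to be present through the cell cycle. TK1 (ENSG00000167900, chr17:78174079-78187204) had 765 and 678 normalized reads in siCtrl, 291 and 151 under siSFPQ-2, and 405 and 402 under siSFPQ-3. The 3 groups were fully separate, and the log2 fold change of -1.30 (SE 0.207, limma adjusted p = 0.000532) was the largest fall among the 9 genes. DCK (ENSG00000156136, chr4:70993649-71030914) gave 453 and 474 in siCtrl, 311 and 267 under siSFPQ-2, and 402 and 379 under siSFPQ-3. Its groups were separate too, but the shift was smaller, with a log2 fold change of -0.47 (SE 0.112, limma adjusted p = 0.00600), and the call was lost without siCtrl replicate 2 (adjusted p = 0.0756). The mitochondrial kinases of the same substrates, TK2 and DGUOK, had log2 fold changes of -0.01 and 0.04 (adjusted p = 0.958 and 0.742).

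In the authors' deposited table, 7 of the 9 genes had an adjusted p below 0.05 and 6 were in the class named down. RRM1, TYMS, TK1, DUT, DTYMK and GGH made up that class in the authors' deposited table, while DCK (adjusted p 0.0343) and SHMT1 (adjusted p 0.376) were with RRM2 in the class named ns.

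The siRNAs were next set side by side, with the reminder that both comparisons share the same siCtrl libraries. With siSFPQ-2, 8 of the 9 genes fell, where 17.9% of all features did. With siSFPQ-3, 5 of the 9 fell (RRM1, TYMS, TK1, DUT and DTYMK), where 20.4% of all features did. RRM2, GGH, DCK and SHMT1 did not pass under siSFPQ-3, with log2 fold changes of -0.60, -0.63, -0.25 and -0.07 and limma adjusted p of 0.0650, 0.0549, 0.144 and 0.669. The SHMT1 value turned to 0.07 without siCtrl replicate 1. The number that passed depended on the test, since 7 had an unadjusted p under 0.05, edgeR called 6 and DESeq2 called 7. It was smaller when siCtrl replicate 2 was left out, and the share of all features that passed in these other settings was not counted. The median log2 fold change of the 9 genes was -1.27 under siSFPQ-2 and -0.75 under siSFPQ-3.

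**Figure D2:**
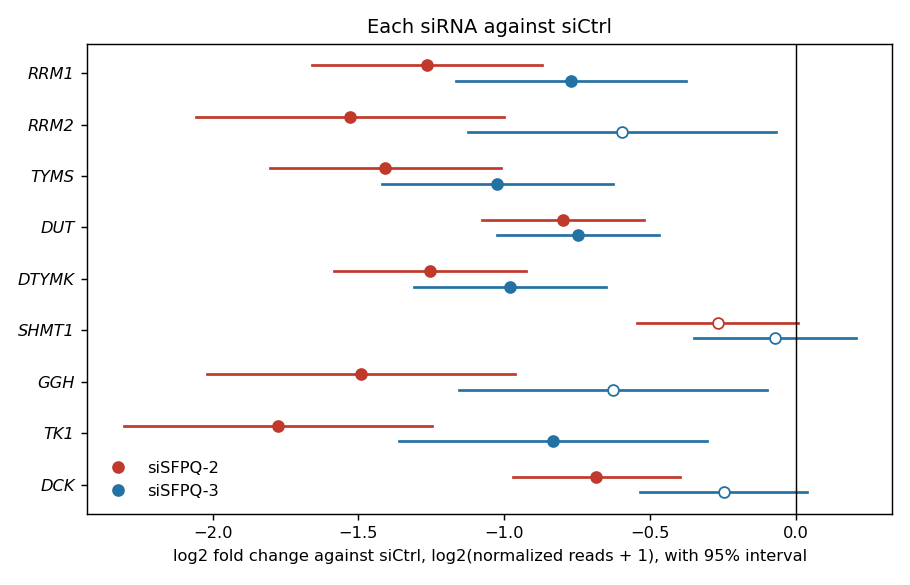
Log2 fold change of each gene against siCtrl (x axis, on log2(normalized reads + 1)) for siSFPQ-2 and siSFPQ-3, with 95% intervals; filled points have a limma adjusted p under 0.05. All 18 estimates lie below 0, and the siSFPQ-3 point lies nearer to 0 than the siSFPQ-2 point in every gene, with the widest gaps in TK1, RRM2 and GGH.

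Each of the 9 genes had a higher mean under siSFPQ-3 than under siSFPQ-2, except that DUT turned to -0.02 (log2) when libraries were scaled to the same total. In 6 of them (RRM1, RRM2, TK1, DCK, SHMT1 and GGH) both siSFPQ-3 libraries lay above both siSFPQ-2 libraries, as in 22% of all features. None passed the direct test between the siRNAs by limma with no pairing of replicates. In that test 0.0781% of all features were called higher and 0.023% lower. At an unadjusted p under 0.05 the count was 5, edgeR called 0, and DESeq2 called RRM2 and TK1. The share of all features under these 3 readings was not counted. The ratio of siSFPQ-3 to siSFPQ-2 was 1.92 for TK1 (adjusted p = 0.146), 1.91 for RRM2 (0.151) and 1.82 for GGH (0.175). At the other end it was 1.04 for DUT, with a 95% interval of the log2 difference from -0.23 to 0.33. All 9 genes were lowest in siSFPQ-2 replicate 2, and 8 had their highest siSFPQ value in siSFPQ-3 replicate 1. The share of all features with either arrangement was not counted. Leaving out siSFPQ-2 replicate 1 makes replicate 2 the lone siSFPQ-2 library. The log2 differences were then 1.42 for TK1, 1.38 for RRM2, 1.27 for GGH and 0.79 for RRM1. With replicate 2 left out instead, that of RRM1 was 0.20.

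Genes of the replication programme moved in the same libraries. A list of 25 S phase and E2F-linked genes (the MCM2 to MCM7 helicase genes, PCNA, CDC6, E2F1, CCNE2, MKI67 and others) was chosen with earlier results of these data known. Of the 25, 24 fell over both siRNAs by limma, beside 23.2% of all features. The exception was MCM7, with a log2 fold change of -0.22 (adjusted p = 0.129). The median log2 fold change of the 25 genes was -0.99, beside -0.02 over all features. Their summed normalized reads were 17337 and 16427 in siCtrl, 9694 and 7252 under siSFPQ-2, and 11842 and 11712 under siSFPQ-3. All 25 were lowest in siSFPQ-2 replicate 2, the same library in which the deoxynucleotide genes were lowest. The share of all features lowest there was not counted. For the 25 genes the median difference between siSFPQ-3 and siSFPQ-2 was 0.46 on the log2 scale, beside 0.44 for the 9 genes and 0.002 over all features. How far the share of cells in S phase entered the falls was not tested. Some epithelial and fibroblast markers also moved with the groups. The keratins KRT8 and KRT18 and the collagen gene COL1A1 were higher (log2 fold changes 1.40, 3.24 and 1.16, each with a limma adjusted p of 0.000186 or less). EPCAM (log2 fold change 0.10, limma adjusted p = 0.609) and COL1A2 (0.48, adjusted p = 0.261) did not pass. The part of these markers in the falls was not tested. The summed reads of the 3 epithelial markers in the table were 921 to 1016 in siCtrl and 2207 to 2717 in siSFPQ libraries, and of the 2 fibroblast markers 224 to 255 and 411 to 582.

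The mean pattern of the 9 genes over the 6 libraries, as log2 values centred on each gene, was 0.63 and 0.59 in siCtrl, -0.30 and -0.82 under siSFPQ-2, and 0.03 and -0.13 under siSFPQ-3. RRM1 lay nearest to this mean (root mean square distance 0.0664 on the log2 scale) and SHMT1 farthest (0.393). Among 10879 other features with a mean of at least 287 normalized reads, the 5 nearest over the 6 libraries were CCNB1 (0.0469), POLE (0.0480), RBL1 (0.0644), NCAPD2 (0.0694) and ZNF93 (0.0701). CCNB1 encodes the mitotic cyclin B1, POLE the catalytic subunit of a replicative DNA polymerase, RBL1 a pocket protein that binds E2F factors, and NCAPD2 a condensin subunit. CCNB1 had 638 and 606 reads in siCtrl, 312 and 229 under siSFPQ-2, and 437 and 379 under siSFPQ-3.

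Several of the genes share sequence or a start region with neighbours, and the sources used here do not give the use of strand in counting, so reads of overlapping genes cannot be told apart. The RefSeq span of TYMS overlaps the antisense gene TYMSOS by 639 bases and ENOSF1, on the opposite strand, by 10593 bases. TYMSOS fell by 0.58 on the log2 scale (limma adjusted p = 0.00298) and ENOSF1 fell by 0.51 (adjusted p = 0.00150). The call for TYMSOS was lost without siCtrl replicate 1 (adjusted p = 0.0584). AFMID starts 158 bases from TK1 and ING5 starts 205 bases from DTYMK, each on the other strand and running away. AFMID fell by 0.53 (adjusted p = 0.00235) and ING5 fell by 0.80 (adjusted p = 0.000141). SMCR8, whose end overlaps that of SHMT1 by 184 bases on the opposite strand, fell by 0.46 (adjusted p = 0.00466), a call lost without siCtrl replicate 1 (adjusted p = 0.0716). DUT-AS1 overlaps DUT by 762 bases and was not analysed here. MIR6778, within SHMT1, stayed at or under 1.11 normalized reads in every library and was not tested.

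The deposited profiles give signal in 500 bins for each gene, of which the middle 300 were taken as the scaled gene. This reading was assumed, and it held only roughly for single genes. In siCtrl the highest group of 10 bins was 101 to 110, just inside the assumed start, in RRM2, TK1, DUT, DTYMK, SHMT1 and GGH, but 91 to 100, just before it, in RRM1, TYMS and DCK. For RRM1, TYMS and DCK the start window therefore holds the far side of the peak and not its top.

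**Figure D3:**
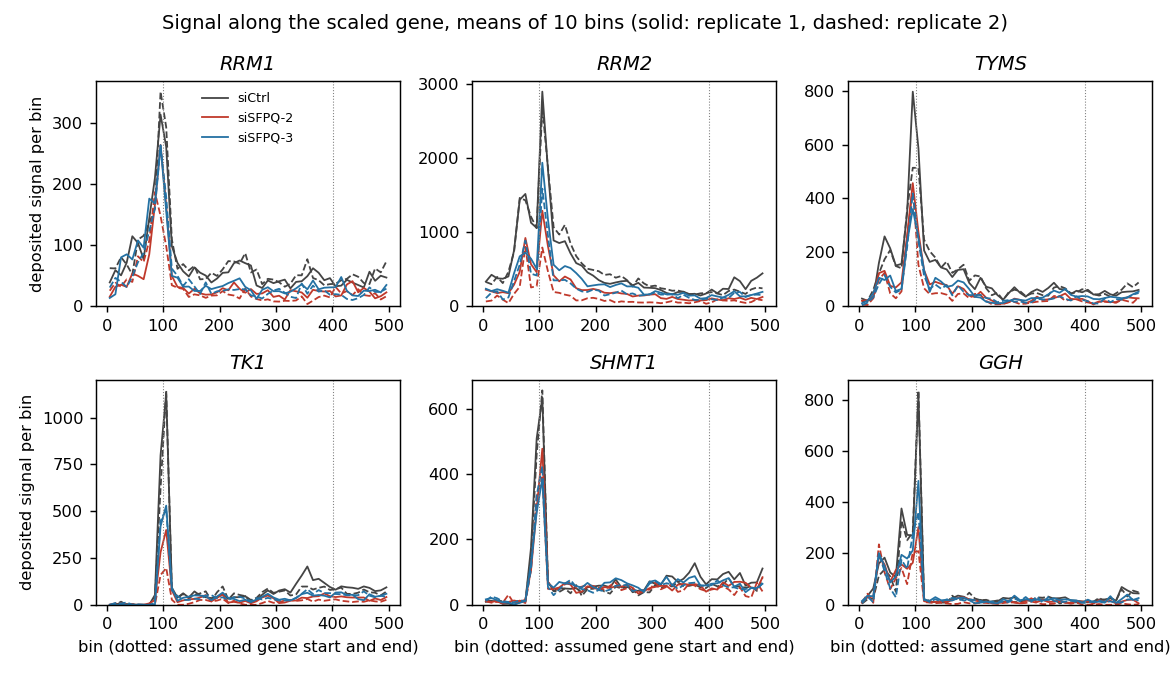
Deposited signal (y axis, mean over groups of 10 bins) along 500 bins (x axis) for 6 of the genes in the 6 libraries, with dotted lines at the assumed gene start and end. The siCtrl lines (grey) are highest at the peak in all 6 panels, and over the gene body in SHMT1 the lines of all groups run together.

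Signal fell at the start and over the body of most of these genes. In the body window (bins 131 to 370) the ratio of siSFPQ to siCtrl signal was 0.443 for RRM1, 0.454 for RRM2, 0.446 for TYMS, 0.470 for TK1, 0.482 for DTYMK, 0.545 for DUT, 0.768 for DCK, 0.733 for GGH and 1.04 for SHMT1. In the start window (bins 101 to 130) it lay between 0.395 for TK1 and 0.705 for DCK, and SHMT1 stood at 0.692. The body ratio of GGH differed between the siRNAs, at 0.540 under siSFPQ-2 and 0.925 under siSFPQ-3. The sources used here do not give the scaling of profiles between libraries, so the ratio of start to body signal within each library was tested. That ratio passed for none of the 9 genes, and for 0% of the 32424 genes tested in either direction (limma, Benjamini-Hochberg). SHMT1 and GGH had an unadjusted p under 0.05.

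In SHMT1 the ratio of start to body signal was 0.513 and 0.658 in siCtrl, 0.469 and 0.378 under siSFPQ-2, and 0.321 and 0.387 under siSFPQ-3. The 4 siSFPQ libraries lay below both siCtrl libraries, with the siRNAs overlapping each other, and the log2 change was -0.59 with a 95% interval from -1.18 to -0.0043 (limma adjusted p = 0.262). In GGH the ratio was 1.76 and 1.96 in siCtrl, 0.954 and 1.42 under siSFPQ-2, and 1.16 and 0.949 under siSFPQ-3. The log2 change was -0.75, with a 95% interval from -1.41 to -0.081 (adjusted p = 0.235). Over all genes the median change was -0.17, and over the 9 genes it was -0.10. When only the 20265 profile genes that were also tested in the table were used, and the variance was allowed to follow body signal, 1110 genes were called lower and 190 higher, and still none of the 9, whose adjusted p lay between 0.0954 and 0.983.

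The ratio of late to early body signal (bins 281 to 370 over 161 to 250) passed in none of the 9 genes either, at an unadjusted p under 0.05 included, where 0% of genes were called lower and 0.00925% higher. TK1 moved most, with ratios of 2.51 and 1.34 in siCtrl and 1.03 to 1.15 in the siSFPQ libraries, a log2 change of -0.74 with a 95% interval from -1.61 to 0.12 (limma adjusted p = 0.479). The control libraries of TK1 differed from each other by more than the lower one differed from the siSFPQ libraries. For DCK, late signal exceeded early signal 2.42-fold to 4.61-fold in all 6 libraries.

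The wider nucleotide and folate pathways moved in both directions. Of 90 related genes, 86 were tested over both siRNAs, of which 37 fell and 16 rose (limma), 43% and 18.6% beside 23.2% and 24.8% of all features, with a median log2 fold change of -0.18. The genes fell into groups by role, which were drawn after their values were known. In de novo pyrimidine synthesis all 4 tested genes fell. CAD, the enzyme of the opening steps of that route, had 1070 and 1076 reads in siCtrl and 580 to 682 in the siSFPQ libraries (log2 fold change -0.75, adjusted p = 8.99e-05). DHODH, the mitochondrial enzyme of the same route, fell from 398 and 388 to between 165 and 221 (log2 fold change -1.04, adjusted p = 0.000210). In de novo purine synthesis 7 of 11 genes fell and 4 did not pass, with PFAS lowest (log2 fold change -1.07). PRPS2, a synthetase of the ribose donor of both routes, went from 775 and 836 to between 402 and 474 (log2 fold change -0.85, adjusted p = 9.22e-05).

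Among folate carriers and one-carbon enzymes 10 of 20 fell and 2 rose, beside 23.2% and 24.8% of all features. The reduced folate carrier SLC19A1 showed a log2 fold change of -1.27 (adjusted p = 0.000216). For the cytosolic enzyme MTHFD1 it was -0.64 (adjusted p = 0.000836). SHMT2, the mitochondrial counterpart of SHMT1, showed a log2 fold change of -0.28 (adjusted p = 0.0543). It passed under siSFPQ-3 (log2 fold change -0.50, adjusted p = 0.00836) and not under siSFPQ-2 (-0.05, adjusted p = 0.761), and the difference between the siRNAs did not pass (adjusted p = 0.176). FPGS, which adds the glutamates that GGH removes, showed a log2 fold change of -0.11 (adjusted p = 0.433).

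In salvage and breakdown 7 of 22 genes rose and 5 fell, beside 24.8% and 23.2% of all features. DPYD, which degrades pyrimidine bases, rose from 1074 and 1001 reads in siCtrl to between 2688 and 3102 (log2 fold change 1.49, adjusted p = 1.21e-06). CDA, which deaminates cytidine and deoxycytidine, rose from 28.7 and 28.8 to between 205 and 365 (log2 fold change 3.21, adjusted p = 1.78e-06). NT5C2, a cytosolic nucleotidase, rose from 1528 and 1467 to between 2874 and 3411 (log2 fold change 1.09, adjusted p = 1.03e-05). NT5M, a mitochondrial deoxynucleotidase, fell from 677 and 621 to between 250 and 361 (log2 fold change -1.11, adjusted p = 0.000179). Each of these 4 genes kept all siSFPQ libraries on one side of both controls. They were named for a small adjusted p from the same libraries, so this is no separate support.

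Among the electron donors of ribonucleotide reductase, TXNRD1 rose (log2 fold change 0.85, adjusted p = 0.000120) and TXN did not pass (log2 fold change -0.04). The glutaredoxin gene GLRX had 3 and 1 whole reads in siCtrl, 21 and 14 under siSFPQ-2, and 44 and 61 under siSFPQ-3. GLRX passed the filter on low values only through the siSFPQ libraries, so a difference was built into its selection and neither its fold nor its p is given; it is one of the 16 genes counted as higher. SAMHD1, which hydrolyses deoxynucleoside triphosphates, showed a log2 fold change of -0.37 (adjusted p = 0.0381), a call lost when siCtrl replicate 1 or 2 was left out (adjusted p = 0.257 and 0.103), and UNG, which removes uracil from DNA, had one of -0.19 (adjusted p = 0.176). NUDT1, which hydrolyses oxidised nucleotides, fell by 1.30 on the log2 scale (adjusted p = 0.00155).

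The number of related genes that passed rested on the control libraries: 19 fell without siCtrl replicate 1 and 23 without siCtrl replicate 2, and 10 rose without siCtrl replicate 2.

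**Figure D4:**
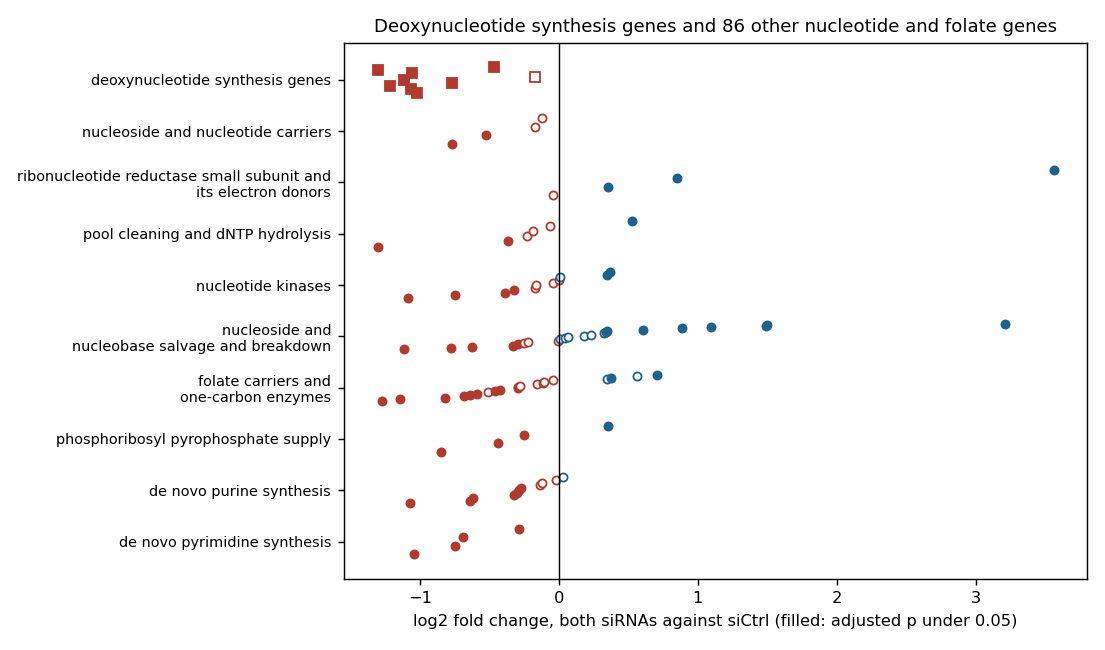
Log2 fold change over both siRNAs (x axis) of the 9 deoxynucleotide synthesis genes (squares) and 86 other nucleotide and folate genes (circles) by role; filled symbols have a limma adjusted p under 0.05 and vertical offsets only separate the points. Of the squares, 8 are filled and lie left of 0, all 4 pyrimidine synthesis genes lie left of 0, and salvage and breakdown spreads to both sides, with CDA at 3.21, while the rightmost point of all is GLRX, whose place depends on the pseudocount.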

How the data were processed

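The authors deposited signal per feature as normalized reads for 6 PRO-seq libraries, with their own log2 fold change, standard-error score, fold change and p-value, which serve only as a side-by-side reading. Per library, the authors also deposited signal in 500 bins per gene. Bowtie2, cutadapt 1.14, DESeq2 1.38.1, SAMtools 1.3.1 and UMI-tools are listed per the submitters' processing notes, with the builds hg38 and dm6. Not given in the sources used here are the annotation, the counted part of a gene, the use of strand, the role of dm6 and the size of a bin. After removal of 240 repeated lines, log2(normalized reads + 1) was fitted with limma 3.58.1 (trend; R 4.3.3) in a single fit of 3 groups, with Benjamini-Hochberg adjustment over all 21773 features tested and a threshold of 0.05. Such fold changes understate changes of low genes. Every value was a whole multiple of 1 read (100% at a tolerance of 0.1 read), so edgeR 4.0.16 and DESeq2 1.42.0 were run on whole reads as alternatives. The edgeR test called 5010 features lower and 5521 higher. Window ratios within profiles carried a pseudocount of 1. The fitting steps were tested on simulated data. Members and lists were chosen with earlier results of these data known. Named were the 9 genes, overlapping or adjoining genes, 8 counterparts, up to 4 related genes with the smallest adjusted p per direction, the 5 genes of most similar pattern, and SFPQ; PFAS, SLC19A1, MTHFD1, TXN, TXNRD1, NUDT1 and MCM7 were named after their values were seen. Some genes that this rule names are not reported here.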

Additional observations from a re-analysis of the deposited data

How the results depend on the processing

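The 8 falls over both siRNAs held with edgeR, DESeq2, another pseudocount, filter or scaling, and with the 4 siSFPQ libraries as 1 group, and 7 to 8 held with 1 library left out, DCK being lost without siCtrl replicate 2. RRM1, RRM2, TYMS, TK1, DUT, DTYMK and GGH passed in 17 of 17 settings and SHMT1 in 0. With 1 library left out, 3 to 7 genes fell with siSFPQ-3 (5 with all), 0 to 4 differed between the siRNAs (0 with all), 19 to 35 related genes fell (37 with all) and 10 to 17 rose (16 with all). DESeq2 called 2 genes between the siRNAs. The share of all features that DESeq2 called there, or that passed with 1 library left out, was not counted. Nothing in the labels ties replicate numbers across groups, so no pairing was used. The deviations of same-numbered libraries correlated at 0.0529 and 0.0587 between siCtrl and either siRNA. Between the siRNAs they correlated at 0.382, so for that comparison the choice of pairing matters more. With the replicate block 8 genes fell over both siRNAs, 9 with siSFPQ-2, 7 with siSFPQ-3, and 3 differed between the siRNAs, RRM2 (adjusted p = 0.00838), TK1 (0.00825) and GGH (0.0159). The call for TK1 with siSFPQ-3 was lost without siCtrl replicate 1 (adjusted p = 0.123), without siCtrl replicate 2 (0.0704) and in limma without trend (0.0823), and that for RRM1 without siCtrl replicate 2 (0.0598). None of the calls over both siRNAs or for either siRNA changed direction. Log2 values that had not passed turned sign in 17 cases, of which 0 passed. With 1 library left out, the log2 value of SHMT1 under siSFPQ-3 ranged from -0.213 to 0.0688, that of DUT between the siRNAs from -0.0339 to 0.134, that of TK2 from -0.0453 to 0.0318 and that of DGUOK from -0.0174 to 0.107. The start over body change ranged likewise from -0.0213 to 0.225 for RRM2, -0.314 to 0.0676 for DCK and -0.225 to 0.241 for DTYMK, and the late over early change from -0.206 to 0.163 for RRM1 and -0.559 to 0.0548 for DUT. DUT between the siRNAs was -0.0205 with libraries scaled to the same total, TK2 was 0.00913 with edgeR, and the late over early change of DUT was 0.0215 with moved windows. The cause of these changes was not tested. Each value of the 9 genes rested on 67 or more whole reads, and each group on 2 libraries.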
